A study of Homo sapiens with 2 samples.

Results

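The glutaredoxins, the thioredoxins and the proteins that handle iron-sulfur clusters with the monothiol glutaredoxin GLRX3 were examined in 2 cell lines. The genes were chosen by symbol. They were the glutaredoxins GLRX, GLRX2, GLRX3 and GLRX5, the thioredoxins TXN and TXN2, the BOLA genes BOLA1, BOLA2 and BOLA3, and CIAPIN1, together 10 of the 27685 genes in the table. The libraries were stranded mRNA-seq of untreated H2087 and untreated H596 cells, both labelled lung adenocarcinoma, with 1 library per line. H2087 and H596 are established human lung cancer cell lines, each standing for 1 tumour. With 1 library per line no difference could be tested, and a difference between the lines cannot be told apart from a difference between their cultures or libraries.

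Glutaredoxins and thioredoxins are small proteins of the same fold. Thioredoxins reduce protein disulfides through a pair of cysteines and are recharged by thioredoxin reductase, whereas dithiol glutaredoxins are recharged by glutathione. Monothiol glutaredoxins, whose site ends in serine, bind an iron-sulfur cluster with glutathione and pass it on rather than act mainly as reductants. BOLA proteins pair with the monothiol glutaredoxins, BOLA2 with GLRX3 in the cytosol and BOLA1 and BOLA3 with GLRX5 in mitochondria. CIAPIN1, also called anamorsin, carries electrons for cytosolic iron-sulfur assembly and receives clusters from GLRX3.

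The coding bases around each active site show this division, and they are printed because the site is what sets GLRX3 and GLRX5 apart from the other members. Each run is 30 bases of coding strand, with the 4 codons of the site in capitals.
GLRX: aagcccaccTGCCCGTACTGCaggagggcc
GLRX2: aaaacatccTGTTCTTACTGTacaatggca
GLRX3 first site: gaaccacgcTGTGGTTTCAGCaagcagatg
GLRX3 second site: gaagcaaaaTGTGGATTCAGCaaacaaatt
GLRX5: cagccccagTGCGGCTTCAGCaacgccgtg
TXN: gccacgtggTGTGGGCCTTGCaaaatgatc
TXN2: gcacagtggTGTGGACCCTGCaagatcctg

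The bases were read from the GRCh37 genome, the same build as the authors' hg19, with GENCODE 44 transcript models. GLRX encodes Cys-Pro-Tyr-Cys at residue 23 of 106 (chr5:95158280-95158309, minus strand, exon 1 of 3). GLRX2 encodes Cys-Ser-Tyr-Cys at residue 77 of 164 (chr1:193066825-193066854, minus strand, exon 3 of 4). Both therefore hold a pair of cysteines. GLRX3 encodes Cys-Gly-Phe-Ser in each of 2 glutaredoxin domains, at residues 159 and 261 of 335. Its first run crosses a junction of exons 4 and 5 of 11 (chr10:131959249-131959261 and chr10:131964771-131964787, plus strand). Its second lies in exon 8 (chr10:131969848-131969877). GLRX5 encodes the same Cys-Gly-Phe-Ser at residue 67 of 157 (chr14:96001616-96001645, plus strand, exon 1 of 2). TXN and TXN2 share Cys-Gly-Pro-Cys. In TXN it starts at residue 32 of 105 (chr9:113013653-113013682, minus strand, exon 2 of 5). In TXN2 it starts at residue 90 of 166, and the run crosses exons 2 and 3 of 4 (chr22:36872879-36872903 and chr22:36876622-36876626, minus strand). Over 19807 coding genes, the 4 residues Cys-Gly-Phe-Ser occurred in 0.308% and Cys-Gly-Pro-Cys in 0.323%, so a match alone is no sign of either family.

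The deposited gene counts summed to 46961500 in H2087 and 55387847 in H596. All 4 epithelial markers were read in both lines, but 3 of them, EPCAM, KRT8 and KRT18, were at least 2-fold lower in H596, and the median of the 4 was -2.36. Of 5 lung adenocarcinoma markers KRT7 was at 791 FPKM in H2087 and 608 in H596, and SFTPB at 0.123 and at 0 counts. The other markers NKX2-1, NAPSA and SFTA3 were at 110.0, 21.9 and 101 FPKM in H2087 but at 0.508, 0.0645 and 0.0304 in H596. The 5 squamous markers TP63, KRT5, KRT6A, DSG3 and KRT13 summed to 1.94 FPKM in H2087 and 3807 in H596. Most of the H596 sum was KRT13 at 3558, and the rest lay between 33.9 for DSG3 and 106 for KRT5. Apart from KRT7 the H596 library thus did not carry the markers of its label. PTPRC and CD3E, leukocyte markers, had 0 counts in both. The lines thus differ in many of these markers along with any gene that differs below, and the part of that difference in the results was not tested.

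TXN was the member with the highest level in both lines, and GLRX3 was next in H2087 but only number 4 in H596. Levels are given as FPKM, fragments scaled by transcript length and library size, so that genes of different length can be set side by side. Each carries a 95% interval for counting error alone. Reads without molecular identifiers are not independent molecules, so true intervals are wider. A difference is log2(FPKM + 1) in H596 minus that in H2087, and at least 2-fold means a size of 1 or more on that scale. Folds are ratios of FPKM. In bulk libraries fewer cells with a transcript and less RNA per cell cannot be told apart.

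All 10 members passed the filter of a mean FPKM of at least 1, as did 13048 genes in all. GLRX, GLRX3 and BOLA3 were at least 2-fold lower in H596, 3 of 10 against 14.2% of all genes tested. BOLA1 was at least 2-fold higher, 1 of 10 against 18.2%. With so few members these shares are a description. The difference was below 0 in 9 of 10 members and in 44.8% of all genes, and the members' median was -0.49 against 0.12 for all genes.

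**Figure D1:**
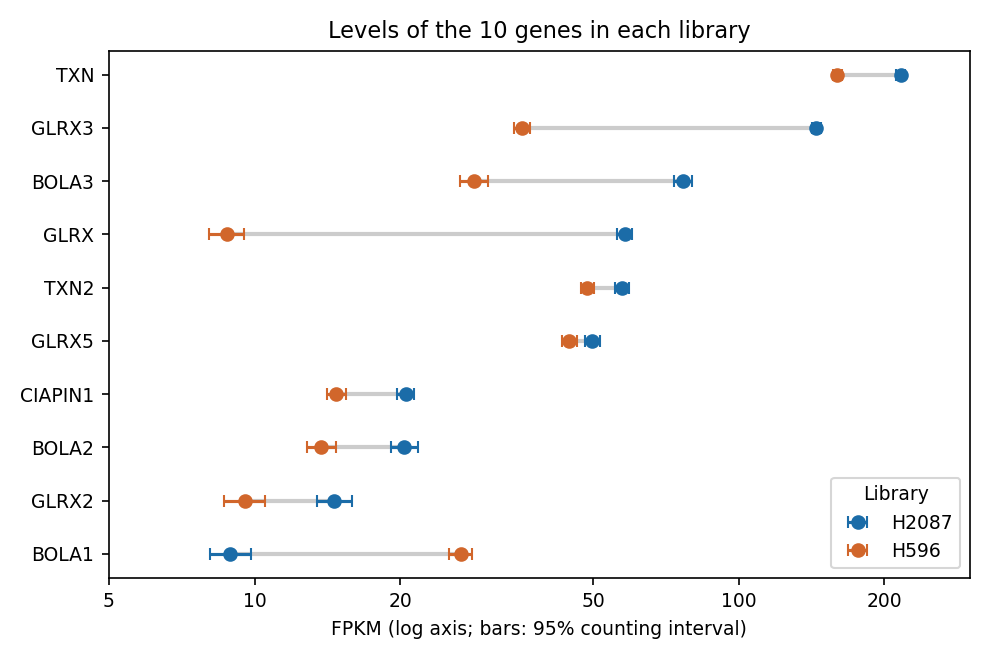
FPKM of the 10 genes in H2087 and H596 on a log axis, with bars for the 95% counting interval of each single library. GLRX, GLRX3 and BOLA3 lie lower in H596, BOLA1 lies higher, and GLRX5 and TXN2 lie close together in both lines.

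Among the glutaredoxins, GLRX3 and GLRX were much lower in H596 while GLRX5 was nearly level. GLRX3 (gene 10539, chr10:131934639-131978646) had 9272 counts and 145 FPKM (142 to 148) in H2087. In H596 it had 2700 counts and 35.6 FPKM (34.3 to 37.0). The difference was -1.99 (counting interval -2.05 to -1.93), a level 4.06-fold higher in H2087 (3.89 to 4.24). Only 4.81% of genes tested had a lower difference. GLRX3 and TXN were the 2 members above 100 FPKM in H2087, a level that 704 genes reached, and TXN alone was above it in H596.

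GLRX (gene 2745, chr5:95149553-95158577), the cytosolic dithiol glutaredoxin, differed most of all members. It had 3154 counts and 58.1 FPKM (56.1 to 60.1) in H2087 and 581 counts and 8.75 FPKM (8.07 to 9.49) in H596. That is 6.64-fold higher in H2087 (6.07 to 7.26), and 2.78% of genes tested had a lower difference. GLRX went from number 4 among the 10 genes in H2087 to number 10 in H596.

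GLRX2 (gene 51022, chr1:193065595-193075244), a largely mitochondrial dithiol glutaredoxin, was low among the 10 members in both lines. It was at 14.6 FPKM (13.4 to 15.9) in H2087 and 9.54 (8.65 to 10.5) in H596, with 530 and 400 counts, 1.53-fold higher in H2087 (1.34 to 1.75). GLRX5 (gene 51218, chr14:96001323-96011055), which acts in mitochondrial cluster delivery, was at 49.8 FPKM (48.0 to 51.7) and 44.6 (43.0 to 46.3). Its difference of -0.16 became 0.02 when each library was rescaled to the same total, so its direction is not settled. The monothiol members thus differed between themselves, the cytosolic one by 4.06-fold and the mitochondrial one by 1.12-fold (1.06 to 1.18).

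The make-up of the family changed accordingly. GLRX3 held 54.1% of the summed glutaredoxin FPKM in H2087 and 36.2% in H596. GLRX5 held 18.7% and 45.3%, so it replaced GLRX3 as the leading glutaredoxin in H596. The ratio of GLRX3 to GLRX5 was 2.90 in H2087 and 0.799 in H596. Against GLRX the ratio moved the other way, from 2.49 to 4.07, because GLRX was lower by more.

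**Figure D2:**
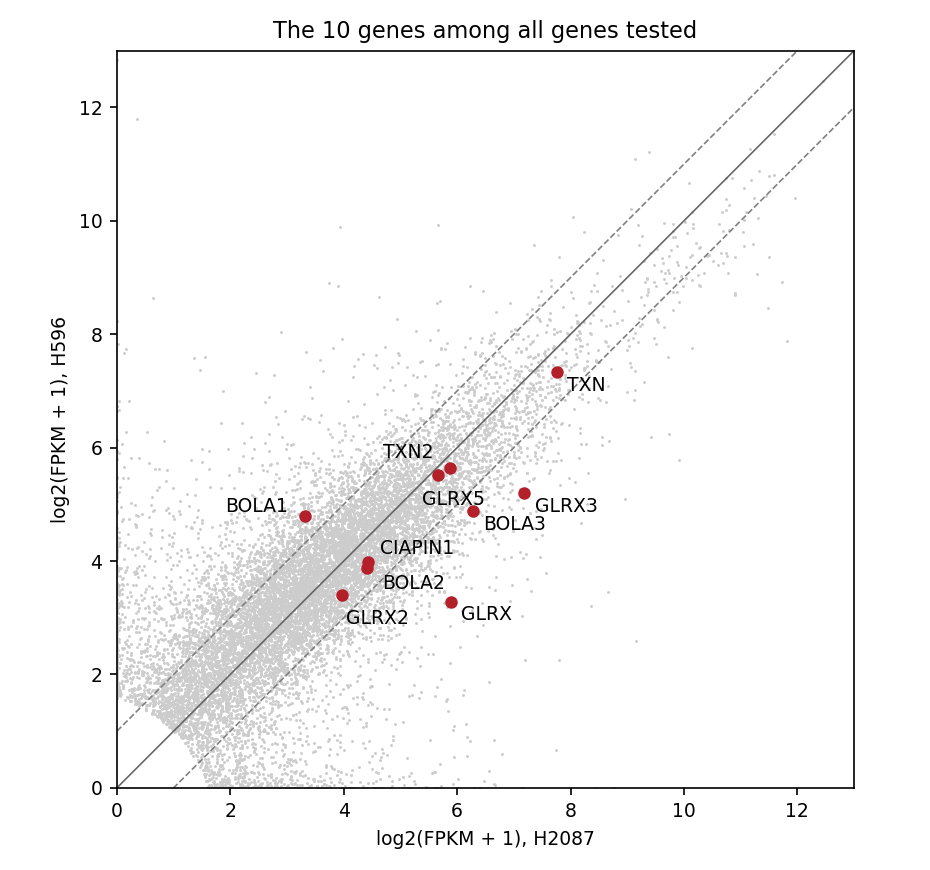
log2(FPKM + 1) in H2087 (horizontal) and H596 (vertical) for the 13048 genes tested in grey and the 10 genes in red. The solid line marks equal levels and the dashed lines 2-fold, with GLRX, GLRX3 and BOLA3 below the lower line and BOLA1 above the upper one.

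Both thioredoxins were abundant and neither differed by 2-fold. TXN (gene 7295, chr9:113006092-113018920), the cytosolic thioredoxin, was at 216 FPKM (212 to 221) in H2087 and 159.7 (156 to 163) in H596, 1.35-fold higher in H2087 (1.31 to 1.40). TXN2 (gene 25828, chr22:36863093-36877687), the mitochondrial form, was at 57.4 (55.5 to 59.2) and 48.7 (47.1 to 50.3), 1.18-fold higher (1.12 to 1.23). TXN was 3.77 times TXN2 in H2087 and 3.28 times in H596. GLRX3, which carries a thioredoxin-like domain before its glutaredoxin domains, was at 0.669 of the TXN level in H2087 and at 0.223 in H596.

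The BOLA genes did not move together. BOLA3 (gene 388962, chr2:74362528-74375039) was at 76.7 FPKM (73.4 to 80.2) in H2087 and 28.4 (26.6 to 30.4) in H596, from 1971 and 864 counts, 2.70-fold higher in H2087 (2.49 to 2.93). BOLA1 (gene 51027, chr1:149871135-149872348) was at 8.91 (8.07 to 9.83) and 26.6 (25.2 to 28.1), from 397 and 1337 counts. That is 2.99-fold higher in H596 (2.67 to 3.35), and 9.83% of genes tested had a higher difference. BOLA1 and BOLA3, both mitochondrial partners of GLRX5, therefore lay 8.61-fold apart in H2087, whereas in H596 their intervals overlapped at a ratio of 1.07. GLRX5 was below BOLA3 in H2087 (ratio 0.650) and above it in H596 (1.57).

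BOLA2 (gene 552900) is the cytosolic partner of GLRX3, and its level depends on how its duplicate is treated. The genome holds 2 copies, at chr16:29464909-29466285 and chr16:30204251-30205627, each 1377 bases long and with 0 mismatches between them in GRCh37. The deposited BOLA2 value was 20.4 FPKM (19.1 to 21.7) in H2087 and 13.7 (12.8 to 14.7) in H596, 1.48-fold higher in H2087 (1.35 to 1.63). The copy BOLA2B (gene 654483) was at 28.9 and 16.6. Reads cannot be assigned to one of 2 identical loci, so how a level divides between them is uncertain.

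The transcript table lists transcripts of both genes at both loci. Summed over all of them the level was 59.2 FPKM in H2087 and 33.0 in H596, from 2861 and 1872 counts. That sum is 2.90 and 2.40 times the BOLA2 value, and its difference of -0.83 is also below 2-fold. Each gene value equalled the sum, over the gene's transcripts, of the larger of that transcript's copies. Whether shared reads were divided between the loci or counted at each is not stated in the sources used here.

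The ratio of GLRX3 to its partner was lower in H596 by either reckoning. Against the BOLA2 value it was 7.09 in H2087 and 2.59 in H596. Against the sum over both loci it was 2.44 and 1.08. The readthrough gene BOLA2-SMG1P6, which overlaps the first locus, was at 11.1 and 8.62 FPKM. It reaches beyond BOLA2, and its reads within the overlap cannot be separated from those of BOLA2. SLX1A and SLX1B also overlap BOLA2 in the annotation, at 13.8 and 14.9 FPKM in H2087 and at 14.8 and 15.9 in H596.

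**Figure D3:**
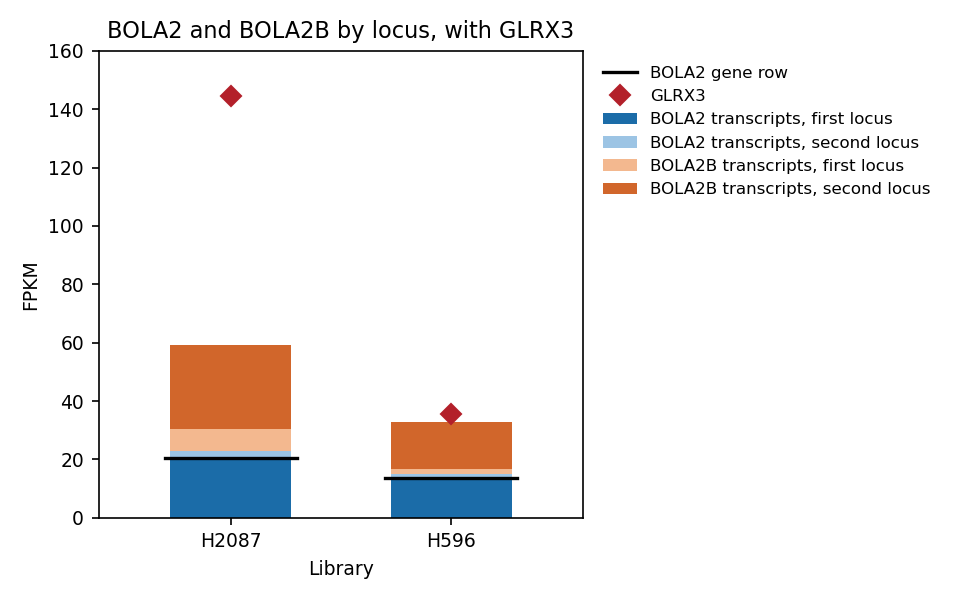
FPKM of BOLA2 and BOLA2B transcripts at each locus of chromosome 16, in H2087 and H596, with diamonds for GLRX3 and black lines for the BOLA2 gene value. Summed over both loci the transcripts reach 59.2 in H2087 and 33.0 in H596, beside 145 and 35.6 for GLRX3.

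CIAPIN1 (gene 57019, chr16:57462081-57481440) was at 20.5 FPKM (19.6 to 21.4) in H2087 and 14.7 (14.1 to 15.4) in H596, 1.39-fold higher in H2087 (1.31 to 1.48). Its intervals overlapped those of BOLA2 in both lines. GLRX3 exceeded CIAPIN1 7.05-fold in H2087 and 2.42-fold in H596. CIAPIN1 overlaps COQ9, at 45.8 and 37.8 FPKM, in the annotation.

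By compartment, the cytosolic members GLRX, GLRX3, TXN, BOLA2 and CIAPIN1 summed to 459.7 FPKM in H2087 and 232.5 in H596, with a median difference of -0.54. The mitochondrial members GLRX2, GLRX5, TXN2, BOLA1 and BOLA3 summed to 207 and 157.9, with a median of -0.23. Neighbours in the order of levels whose intervals overlapped were GLRX with TXN2 and CIAPIN1 with BOLA2 in H2087. In H596 they were BOLA3 with BOLA1, CIAPIN1 with BOLA2, and GLRX2 with GLRX.

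At the transcript level the fold for GLRX3 was not the same for both of its main transcripts. NM_006541 was at 91.6 FPKM in H2087 and 28.7 in H596. NM_001199868, which ends further downstream, was at 52.9 and 6.91. The first made up 63.4% of GLRX3 in H2087 and 80.5% in H596. These transcripts share most exons, so the division is an estimate that comes without an error.

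GLRX was led by NM_001118890, with 84.9% of its FPKM in H2087 and 77.2% in H596. NM_001243658 of GLRX had 264 counts in H2087 and 0 in H596. BOLA1 was led by NM_016074, with 76.5% and 96.4%, at 6.82 and 25.7 FPKM, whereas NM_001321026 was at 1.82 and 0.399. The leading transcript of BOLA3 kept a like share, 79.3% and 78.5%. CIAPIN1 was led by NM_020313, with 75.8% and 85.2%. TXN was nearly all NM_003329, and GLRX5 and TXN2 have a single transcript in the table.

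**Figure D4:**
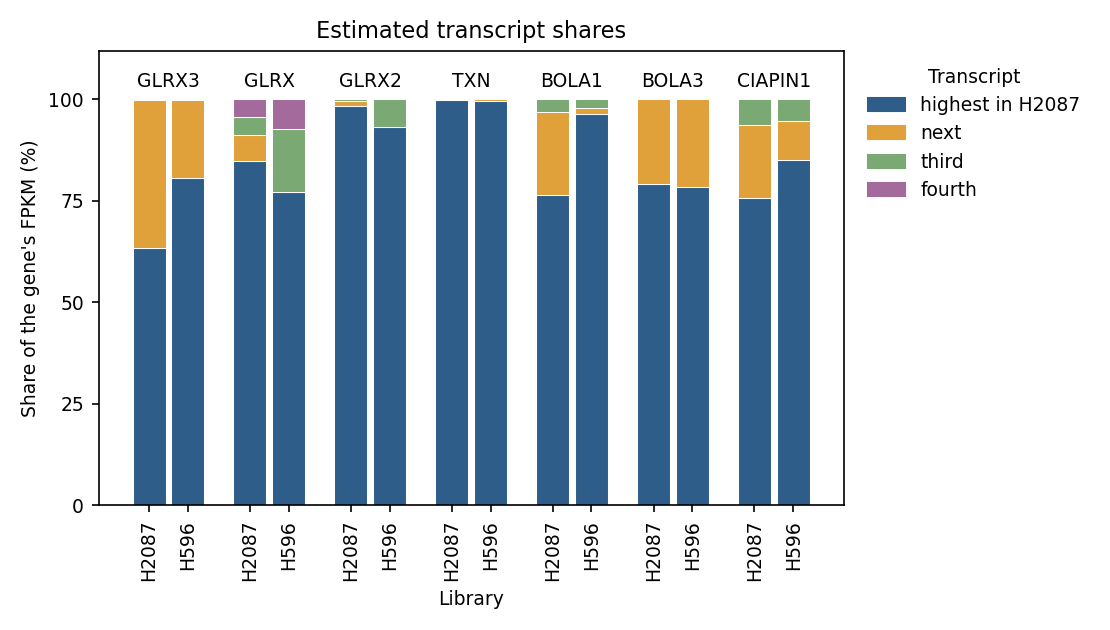
Share of each gene's FPKM held by its transcripts, in percent, in H2087 and H596. The leading transcript of GLRX3 held 63.4% in H2087 and 80.5% in H596, and that of BOLA1 76.5% and 96.4%.

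Partners of these genes were read from lists of known pathway members, over which 18 of 101 tested genes were at least 2-fold lower in H596 and 9 higher, against 14.2% and 18.2% of all genes tested. Their median difference was -0.30. With TPM scaling, which sets the FPKM of each library to the same total, the split was 14 lower and 14 higher. Thioredoxin is recharged by TXNRD1, bound by the inhibitor TXNIP and used by the peroxiredoxins. In this list of 14 tested genes 3 were at least 2-fold lower in H596 and 1 higher, with a median of -0.35. TXNRD1 was at 499.7 FPKM in H2087 and 33.2 in H596, and TXNIP at 86.6 and 431. Relative to TXN, TXNRD1 went from 2.31 to 0.208 and TXNIP from 0.401 to 2.70, around a TXN level that differed by 1.35-fold. SRXN1, which repairs oxidised peroxiredoxins, was at 55.3 and 20.9.

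Around the mitochondrial thioredoxin TXN2, the peroxiredoxin PRDX3 differed more than the thioredoxin. PRDX3, which TXN2 reduces, was at 163 FPKM in H2087 and 43.0 in H596, and so went from 2.84 to 0.884 times TXN2. TXNRD2, its reductase, was at 17.4 and 8.31. That is 2.09-fold higher in H2087 as a ratio of FPKM but a difference of -0.98 with the added 1, just short of 2-fold on that scale. PRDX1, a cytosolic peroxiredoxin, was at 450.0 and 292. The other listed peroxiredoxins also stayed within 2-fold, and not all of them were lower in H596.

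Glutathione, which recharges the dithiol glutaredoxins and holds the cluster in the monothiol ones, was represented by 8 genes. Of these, 4 were at least 2-fold lower in H596 and 0 higher, against 14.2% and 18.2% of all genes tested. Their median was -1.35. GCLC and GCLM, the subunits of the enzyme that begins glutathione synthesis, were at 179 and 32.3 FPKM in H2087 and at 21.0 and 4.63 in H596. GSR, which reduces oxidised glutathione, was at 36.6 and 22.8.

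Most of the mitochondrial assembly genes that lie upstream of GLRX5, 12 of 16, stayed within 2-fold. The other genes were 2 at least 2-fold lower in H596 and 2 higher, against 14.2% and 18.2% of all genes tested. The median was -0.10. FDX2 and its reductase FDXR, which supply electrons to the scaffold, were higher in H596, at 24.2 and 19.0 FPKM against 7.83 and 6.97 in H2087. HSPA9, the chaperone that passes clusters to GLRX5, was at 283 in H2087 and 118 in H596, and NUBPL, an assembly factor for respiratory complex I, at 21.3 and 9.74. The scaffold ISCU was at 34.2 and 21.7, the cysteine desulfurase NFS1 at 24.3 and 32.0, and its partner LYRM4 at 15.2 and 16.2.

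The later carriers of that route stayed short of 2-fold on the log2(FPKM + 1) scale. ISCA1 was at 11.1 FPKM in H2087 and 15.8 in H596, ISCA2 at 28.7 and 20.8, and NFU1, which hands clusters on with BOLA3, at 31.1 and 18.3. IBA57 was at 0.936 and 2.32, which is 2.48-fold higher in H596 as a ratio of FPKM but a difference of 0.78 with the added 1.

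Of the 8 cytosolic assembly genes that act beside GLRX3, BOLA2 and CIAPIN1, 2 were at least 2-fold lower in H596 and 0 higher. The shares over all genes tested were 14.2% and 18.2%, and with 8 genes the counts are a description. The median was -0.13. CIAO2B and MMS19, of the complex that delivers clusters to target proteins, were at 105 and 31.8 FPKM in H2087 and at 35.6 and 14.9 in H596. CIAO1 of the same complex was at 34.5 and 27.1. The scaffold genes NUBP1 and NUBP2 were at 22.5 and 24.9 in H2087 and at 23.2 and 44.2 in H596. CIAO3 was at 6.99 and 13.3, CIAO2A at 53.2 and 59.3, and NDOR1, the reductase that feeds CIAPIN1, at 10.2 and 8.11.

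Of 22 genes for iron-sulfur proteins, 4 were at least 2-fold lower in H596 and 1 higher, against 14.2% and 18.2% of all genes tested. The median was -0.45. Among the lower ones were the lipoyl synthase LIAS at 13.3 and 5.70 FPKM, the DNA glycosylase NTHL1 at 35.6 and 16.3, and the purine synthesis enzyme PPAT at 20.3 and 7.01. UQCRFS1, the Rieske protein of respiratory complex III, was at 31.9 in H2087 and 90.3 in H596. ACO1, the cytosolic aconitase that becomes an iron-regulatory protein without its cluster, was at 20.7 and 12.5.

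**Figure D5:**
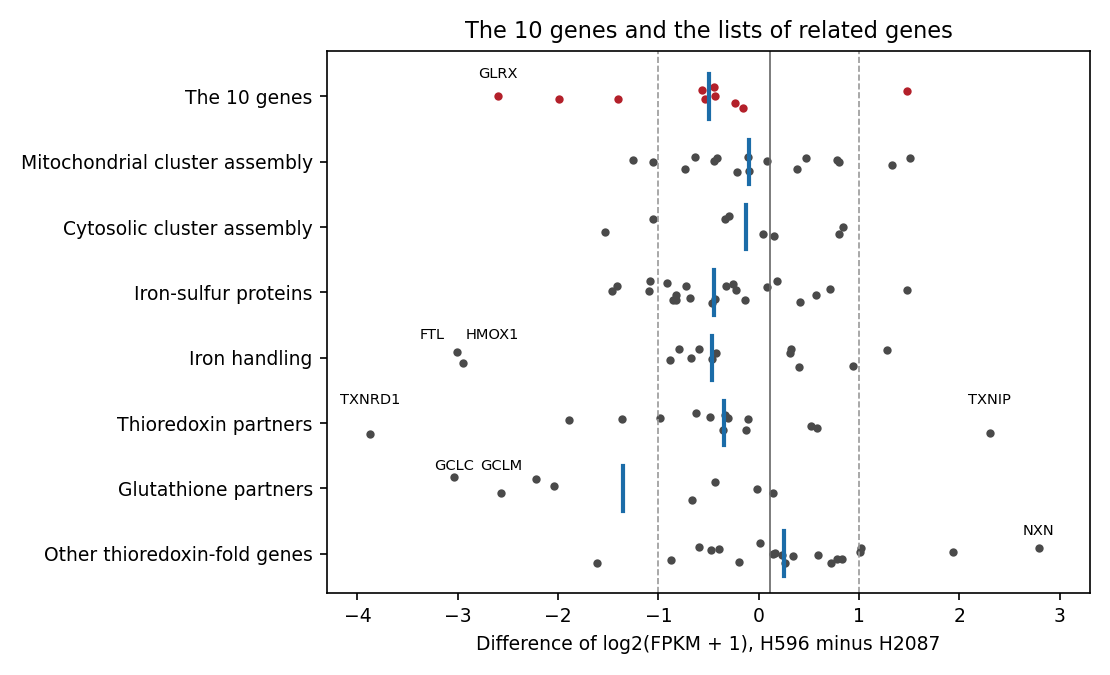
Difference in log2(FPKM + 1), H596 minus H2087, of the 10 genes (red) and of each tested gene in the 7 pathway lists (grey), with blue bars at the list medians, dashed lines at 2-fold and a solid line at the median of all genes tested, 0.12. Some genes with large differences are named, and the median lies lowest, at -1.35, for the glutathione partners.

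The 5 genes nearest to GLRX3 by their levels in both lines were CD55, GDF15, PAICS, HMGB3 and SNRPF. Their distances from it on the log2(FPKM + 1) scale ran from 0.105 to 0.238. CD55, the nearest, was at 137 FPKM in H2087 and 37.5 in H596. Likeness over 2 libraries is a description.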

How the data were processed

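mRNA of untreated H2087 and H596 cells was measured by RNA-seq, 1 library per line. The authors made stranded mRNA libraries, aligned reads with HISAT2 2.0.5 to hg19, and quantified RefSeq transcripts with StringTie 1.3.3b. The submitters' processing notes also name Trimmomatic and bcl2fastq 1.8.4. The deposited files give estimated counts and FPKM per gene and transcript. How counts were made, and whether strand was used, is not given in the sources used here.

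Differences were taken as log2(FPKM + 1), with genes kept at an average FPKM of 1 or more. For levels, the 95% Wilson interval of the count over the library total was rescaled to FPKM, and ratios have exact binomial intervals. No test was made with 1 library per line. The calculation was tested on simulated data. Named genes were the 10 members, fixed direct partners, list genes at least 2-fold different (up to 5 per direction and list) and the 5 genes nearest GLRX3. The members and lists were chosen with earlier results of these data known. Some genes of the lists are counted but not reported here by name. FDX2, CIAO2A, CIAO2B and CIAO3 appear under older symbols in the files. Alternatives were a pseudocount of 0.1, other filters, TPM, edgeR TMM and DESeq2 scaling, centring, CPM, the highest transcript, and BOLA2 summed with BOLA2B. Active sites were read from GRCh37 with GENCODE transcripts. Tools were R 4.3.3, edgeR 4.0.16, DESeq2 1.42.0, Python 3.11.15, pandas 2.3.3, scipy 1.17.1, Biopython 1.88 and matplotlib 3.10.9.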

Additional observations from a re-analysis of the deposited data

How the results depend on the processing

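No paired analysis was possible because H2087 and H596 had 1 library each, which also bars leaving one out. GLRX, GLRX3 and BOLA3 were at least 2-fold lower and BOLA1 higher in H596 under each of the 10 alternatives run. The other filters and BOLA2 summed with BOLA2B do not recompute the differences of these genes, so only the rest could move them. The median difference of all genes, 0.12 as deposited, was 0.30 with TPM scaling and about 0 with TMM and DESeq2 scaling. The GLRX3 difference of -1.99 became -1.82 with TPM, -2.12 with TMM, -2.11 with DESeq2 size factors, -2.11 with centring and -1.64 for the highest single transcript. The GLRX3 level was 91.6 FPKM in H2087 and 28.7 in H596 by the highest transcript, and 309 and 86.4 in TPM. Pathway genes at least 2-fold different numbered 18 lower and 9 higher as deposited, 14 and 14 with TPM, and 21 and 7 with TMM, DESeq2 or centring. GLRX5 was 0.02 higher in H596 with TPM. No direction of another member turned. Depth limits GLRX2, BOLA1 and the minor transcripts most, and with no replicates no spread between cultures was measured.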

Other observations

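Of 20 tested genes of the thioredoxin fold outside the thioredoxins and glutaredoxins, 4 were at least 2-fold higher in H596 and 1 lower, against 18.2% and 14.2% of all genes tested, so the share of higher ones is near that background. Their median difference was 0.25, against 0.12 for all genes. NXN, nucleoredoxin, was at 4.19 FPKM in H2087 and 35.0 in H596, and TXNDC5, a disulfide isomerase of the endoplasmic reticulum, at 25.6 and 101. TXNDC16 and TMX4 were at 1.75 and 4.60 in H2087 and at 4.58 and 10.3 in H596. TXNDC17, a cytosolic thioredoxin-like protein, was at 124 and 39.9.

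Of 13 iron-handling genes, 2 were at least 2-fold lower in H596 and 1 higher, with a median of -0.47. The shares are near those of all genes tested for the lower ones, 14.2%, and below the 18.2% for the higher ones. FTL, the ferritin light chain, was at 2849 FPKM in H2087 and 353 in H596, and HMOX1, which frees iron from heme, at 21.0 and 1.85. IREB2, an iron-regulatory protein, was at 9.04 and 23.3. TFRC, the transferrin receptor, was at 111 and 82.5.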
